A study of Mus musculus with 17 samples.

Results

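The immediate early genes described here are Fos, Fosb, Jun, Junb, Egr1, Atf3, Ier2, Nr4a1, Zfp36 and Dusp1. They are 10 of the 23719 entries of the count table and were taken by matching the gene symbol of each entry to these names. All 10 occurred once, and all 10 were among the 14146 entries that passed the filter on low counts. RNA was sequenced in bulk from colon explants of male C57BL/6 mice 32 to 34 weeks old. The 8 mice of the GWI group, a model of Gulf War illness, received pyridostigmine bromide, which blocks acetylcholinesterase, in drinking water (2 mg/kg over 7 days) and had 21 days of recovery. The 9 Control mice were given water, and all colons are from day 30. Each library held 16293537 to 20741212 counts. The comparison asks whether the 2 groups differed in these transcripts weeks after the exposure had ended, and whether the genes varied together from mouse to mouse.

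Immediate early genes are transcribed within minutes of a stimulus, without new protein synthesis, from promoters that bind factors already present in the cell, such as SRF with its ternary complex partners and CREB. Growth factors, depolarization, stretch and tissue handling all induce them, and their transcripts are short-lived. Some members, among them Zfp36 and Dusp1, encode proteins that shut off such responses. In the gut they are induced in epithelium, smooth muscle, immune cells and neurons alike, so that a bulk colon carries the sum of several sources.

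Some libraries stood apart. Control replicate 1 was the highest of the 9 Control mice for 9 of the 10 genes, Nr4a1 being the exception. Control replicate 8 was the lowest Control for 7 of them. Over all tested genes, the deviations of Control replicate 1 from its group mean correlated best with those of GWI replicate 5 (r = 0.725, a correlation across genes, which are not independent replicates). GWI replicate 5 was in turn the highest GWI mouse for 5 members, namely Fos, Fosb, Jun, Egr1 and Atf3. The share of counts in mitochondrial genes had a mean of 10.5% ± 4.28 (SD, n = 9) in Control and 7.54% ± 1.11 (SD, n = 8) in GWI. Of the 9 Control mice 5, namely replicates 1, 2, 7, 8 and 9, were above every GWI mouse, Control replicate 9 being the highest at 19.5%, the highest GWI mouse standing at 9.76% and the lowest Control at 6.11%. Mice that share the first part of the sample name, which the labels do not define, were Control replicates 3, 4 and 5, Control replicates 7 and 8, GWI replicates 1 and 2, GWI replicates 3, 4 and 5, and GWI replicates 7 and 8. In the Control group such mice were also close in profile across genes: replicate 3 was closest to 4 (r = 0.56), 4 and 5 to each other (0.668) and 7 and 8 to each other (0.603), while no GWI mouse was closest to one of its own name part. The correlation of values within a name part was 0.621 in the fit with the name part as a random block. The counts and fold changes of the members are given with all 17 mice and without Control replicate 1. Fits without each mouse were planned, but this mouse was singled out after its values in the members were seen. As it was the highest Control for 9 of the 10 genes, leaving it out raises their estimates by construction. Calls gained in that fit are therefore a measure of how much rests on this mouse and no separate support for a difference. A fit without both Control replicates 1 and 9 was chosen after the data were seen.

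With all mice, 3 of the 10 genes were called higher in GWI at an adjusted p under 0.05, namely Junb, Ier2 and Zfp36. By edgeR 0 were called lower, and 0 had an estimate below zero with an unadjusted p under 0.05; DESeq2's Wald test called 0 lower and limma-voom with quality weights called 1, Nr4a1. Of all tested genes, 26.8% were called, 13.4% as higher and 13.5% as lower. That split, 1889 higher and 1903 lower, depended on the scaling and the block: with upper-quartile factors it was 1214 and 2992, so that 28.9% of called genes were higher in place of 49.8%, and the share was 63.1% with the replicate number as a block and 80.0% with the first part of the sample name as a random block. The median log2 fold change of the 10 genes was 0.58, beside −0.06 over all tested genes. Without Control replicate 1, 8 of the 10 were called higher and 0 lower, where 34.2% of tested genes were called, 17.9% as higher and 16.3% as lower, and the median of the 10 became 0.90. The genes not called in that fit were Egr1 and Nr4a1. Without Control replicate 8, the lowest Control for 7 members, 2 were called higher, beside 12.4% of tested genes. Without GWI replicate 5, the highest GWI mouse for 5 members, 2 were called higher, beside 13.1%. With the first part of the sample name as a random block, 0 of the 10 genes were called, where 3.32% of tested genes were called, 2.66% as higher. With the replicate number as a block 1 was, Junb (0.98, adjusted p = 0.0424), where 15.8% of tested genes were called, 10.0% as higher. Junb was also the 1 gene called with upper-quartile factors (8.58% of tested genes higher) and with the mitochondrial share as a covariate (15.8% higher), a fit chosen after the data were seen; Ier2 and Zfp36 had an adjusted p of 0.0861 and 0.0517 in the first and of 0.0746 and 0.0712 in the second. With library size alone 2 were called (10.8% higher).

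**Figure D1:**
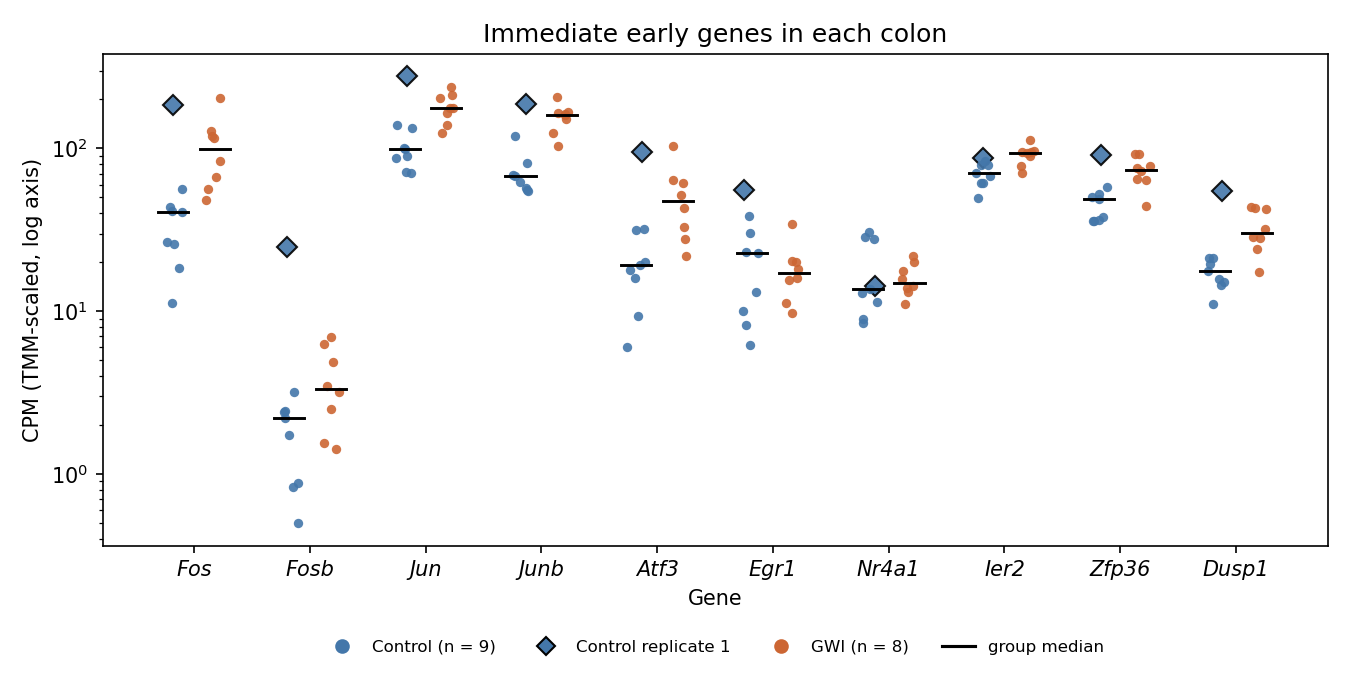
CPM of each immediate early gene in each of the 9 Control and 8 GWI colons, on a log axis, with bars at the group medians and Control replicate 1 drawn as a diamond. The diamond is the highest Control for 9 genes, as for Fos at 185 CPM beside 56.7 in the next Control, and falls among the other Controls for Nr4a1.

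Fos, the partner subunit that needs a JUN protein to bind DNA as AP-1, ranged in Control from 11.3 CPM (counts scaled to a common library size with TMM factors) over a median of 40.7 to 185, and in GWI from 48.1 over 99.9 to 205. The groups overlapped: 7 of 9 Control mice lay below the lowest GWI mouse, while Control replicate 1 lay above all GWI mice but 1. The log2 fold change was 1.05 (SE 0.446, adjusted p = 0.0866) and did not pass. Without Control replicate 1 it was 1.64 (SE 0.329, adjusted p = 0.00137), and 6 of 8 GWI mice were above the other 8 Controls. Its adjusted p over 31 other settings ran from 0.00052 to 0.185, and 5 of them called it higher.

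Fosb, a second FOS-family subunit, was the scarcest of the genes, from 0.497 over 2.21 to 24.8 CPM in Control and from 1.43 over 3.33 to 6.94 CPM in GWI. Its raw counts went down to 9 in 1 mouse. The highest Control value was that of Control replicate 1, and the next was 3.18 CPM. The estimate was −0.19 with all mice (adjusted p = 0.847) and 1.09 without that mouse (SE 0.390, adjusted p = 0.0387). With all mice it was also above 0 with the replicate block (0.56), the name part (0.62) and the muscle minus epithelium covariate (1.22), and was called in none of these fits. Without both Control replicates 1 and 9 the adjusted p was 0.0551, and over 30 other settings it ran from 0.0387 to 0.954.

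Jun, the AP-1 subunit that can also pair with itself, ranged from 70.5 over 98.6 to 277 CPM in Control and from 125 over 177 to 237 CPM in GWI. All 8 GWI mice lay above the Control median, yet 0 lay above Control replicate 1. The log2 fold change was 0.60 (SE 0.235, adjusted p = 0.0656), and 0.86 (SE 0.164, adjusted p = 0.00093) without that mouse. Other settings gave an adjusted p from 0.000204 to 0.197, with 5 of 31 calling it higher.

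Junb, which pairs with FOS proteins and is a weaker activator than Jun, changed most clearly. It ranged from 54.7 over 67.3 to 187 CPM in Control and from 103 over 161 to 206 CPM in GWI, and 7 of 8 GWI mice exceeded the other 8 Controls. It was higher in GWI by 0.89 on the log2 scale (SE 0.230, adjusted p = 0.0104), and by 1.14 (adjusted p = 0.000155) without Control replicate 1. Over 31 other settings its adjusted p lay between 1.3e-05 and 0.0627, and 30 of them kept the call.

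Atf3, a stress-induced factor of the ATF family that can repress its targets, ranged from 6.07 over 19.2 to 95.0 CPM in Control and from 21.9 over 47.3 to 104 CPM in GWI. The 2 extreme mice were again Control replicate 1 and GWI replicate 5. The log2 fold change of 0.89 (SE 0.438, adjusted p = 0.133) did not pass, and that without Control replicate 1, 1.42 (SE 0.341, adjusted p = 0.00464), did. The other settings ran from 0.00464 to 0.259, and 3 of 31 called it higher.

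Egr1, the zinc finger factor named for the early growth response, went the other way in its estimate. Control mice spanned 6.23 to 55.5 CPM around a median of 22.8, and GWI mice spanned 9.81 to 34.4 CPM around 17, wholly inside the Control range. The log2 fold change was −0.34 (SE 0.379, adjusted p = 0.506), and −0.07 (adjusted p = 0.895) without Control replicate 1. With the smooth muscle minus colon epithelium score as a covariate the estimate turned to 0.60 (adjusted p = 0.41), and its adjusted p stayed between 0.0643 and 0.898 over all 31 other settings.

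Nr4a1, an orphan nuclear receptor, had the lowest correlation with the mean of the other members over the 17 mice. It ranged from 8.51 over 13.6 to 30.6 CPM in Control and from 11.1 over 15 to 21.8 CPM in GWI. Control replicates 3, 4 and 5, which share a name part, stood at 27.8, 28.6 and 30.6 CPM, above every GWI mouse, and the other 6 Control mice at 8.51 to 14.2 CPM, replicate 1 being the highest of these. Without these 3 mice, a choice made after the data were seen, the correlation with the mean of the other members was 0.416 in place of 0.259. The log2 fold change was −0.13 (SE 0.259, adjusted p = 0.731). Without Control replicate 5 it was 0.02 (adjusted p = 0.958), and over 31 other settings the adjusted p ran from 0.034, with limma-voom, to 0.985.

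Ier2, a small nuclear protein encoded by a single exon, had the narrowest spread, from 49.5 over 70.7 to 87.6 CPM in Control and from 70.5 over 94.0 to 113 CPM in GWI. Here 6 of 8 GWI mice were above every Control, Control replicate 1 included. It was higher in GWI by 0.36 (SE 0.113, adjusted p = 0.0264), and by 0.41 (adjusted p = 0.0123) without Control replicate 1. It missed the threshold with upper-quartile factors, library size alone, the replicate block, the name-part block, the mitochondrial share as a covariate and without GWI replicate 8 (0.31, adjusted p = 0.0508), and its adjusted p ran from 0.0118 to 0.13.

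Zfp36, whose product tristetraprolin binds AU-rich elements and speeds the decay of short-lived mRNAs, ranged from 35.7 over 49.0 to 90.8 CPM in Control and from 44.5 over 74.1 to 93.0 CPM in GWI. It was higher in GWI by 0.56 (SE 0.184, adjusted p = 0.0322), in 7 of 8 mice against the Control median, and by 0.72 (adjusted p = 0.00177) without Control replicate 1. Its adjusted p lay between 0.000814 and 0.176 over the other settings, and 19 of 31 kept the call. The call was narrow: it was lost without any 1 of Control replicates 3, 5, 7 and 8 and GWI replicates 4, 5, 6 and 7, where the log2 fold change was 0.50 to 0.56 and the adjusted p at most 0.0686. Dusp1, the phosphatase that inactivates p38, JNK and ERK in the nucleus, ranged from 11.1 over 17.6 to 55.0 CPM in Control and from 17.4 over 30.2 to 43.7 CPM in GWI. Its log2 fold change was 0.61 (SE 0.272, adjusted p = 0.0968), and 0.94 (SE 0.186, adjusted p = 0.00123) without Control replicate 1. Other settings ran from 0.00123 to 0.227, and 4 of 31 called it higher.

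**Figure D2:**
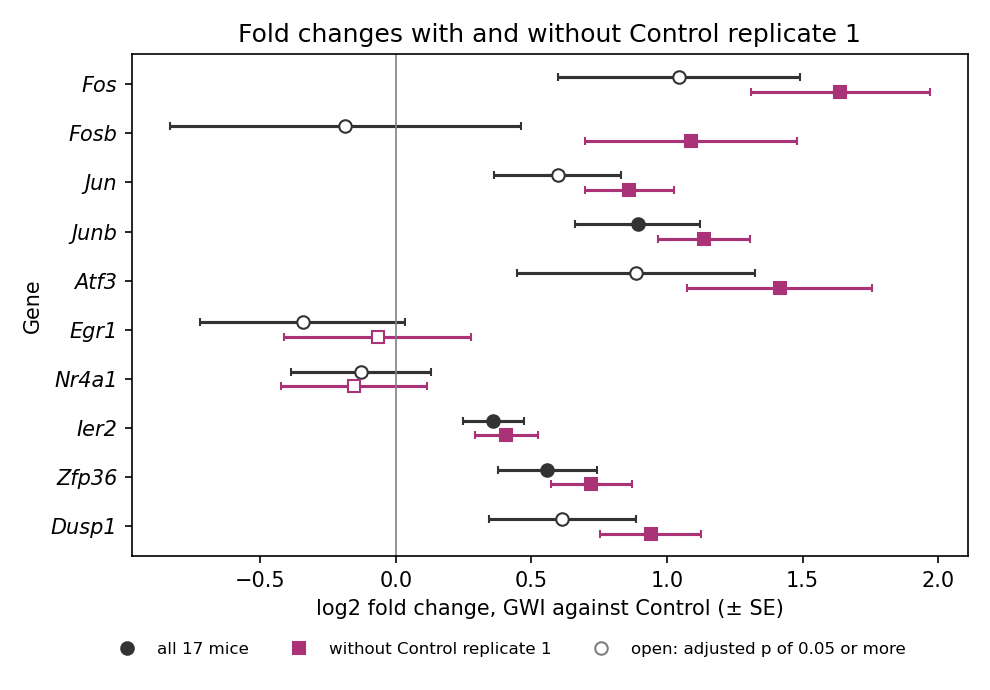
Log2 fold change of GWI against Control for each gene with its SE, for all 17 mice (circles) and without Control replicate 1 (squares), filled where the adjusted p was under 0.05. Fosb moved from −0.19 to 1.09 and Fos from 1.05 to 1.64, while Nr4a1 stood at −0.13 and −0.15.

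Some of these genes share exonic bases with a neighbour on the opposite strand in GENCODE M21: Jun with Junos, Junb with Prdx2, Zfp36 with Gm44710 and Dusp1 with Ergic1. The strand setting of the counting is not stated, so reads in the shared bases cannot be assigned with certainty. Prdx2, a peroxiredoxin, was not called (log2 fold change −0.14, adjusted p = 0.217), nor was Junos (0.29, adjusted p = 0.408). Ergic1, a protein of the compartment between endoplasmic reticulum and Golgi, was higher in GWI by 0.47 (adjusted p = 0.0334).

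Levels between genes were compared per kilobase of exon (RPKM from the union of GENCODE M21 exons). Ier2 had the highest geometric mean over the 17 mice at 52.0 RPKM, followed by Junb at 46.0, Jun at 42.7, Fos at 24.0, Zfp36 at 16.5, Atf3 at 13.8, Dusp1 at 7.22, Nr4a1 at 4.43, Egr1 at 3.94 and Fosb at 0.409. The order differed between the groups: by group mean Ier2 was first in Control (46.8 RPKM ± 8.19, SD, n = 9, beside 37.3 ± 20 for Jun and 36.3 ± 18.9 for Junb), and Junb was first in GWI (67.5 ± 13.2, SD, n = 8, beside 60 ± 8.36 for Ier2), where Atf3 (23.6 ± 12.2) was also above Zfp36 (21.0 ± 4.58). The mean of Egr1 was above that of Nr4a1 in Control (5.15 ± 3.63 beside 4.96 ± 2.55) and below it in GWI (4.06 ± 1.69 beside 4.54 ± 1.04). Several neighbours in the order over all mice did not differ beyond their spread. Ier2 was above Junb in 10 of 17 mice, Junb above Jun in 9, Zfp36 above Atf3 in 9 and Nr4a1 above Egr1 in 11. Fosb was below Egr1 in all 17 mice, by 3.27 on the log2 scale (SD 0.807).

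The members varied together over mice. After the group mean was subtracted from log2 CPM, 30 of the 45 pairs correlated positively at an adjusted p under 0.05 (two-sided permutation of mice within groups, Benjamini-Hochberg over the 45 pairs), and 0 did so negatively. The median Pearson r over the 45 pairs was 0.734, beside −0.00315 over all pairs of tested genes, of which 4.2% were above the members' median. Without Control replicate 1 the count was 22 pairs and the median 0.583, with 10.7% of all pairs above it, and without Control replicates 1 and 9 it was 19 pairs and 0.576, with 8.04% above. These permutations treat the mice of a group as exchangeable. In a test chosen after the data were seen, the mean of each name part was removed for the 12 mice that share one, and mice were permuted only within name parts. Of the 45 pairs 15 passed this exact test after adjustment, all positive, with a median r of 0.68 and 6.69% of all pairs above it, and 29 of 45 had a positive r. Its 288 permutations give no p under 0.00347. With the smooth muscle minus colon epithelium score regressed out, 29 pairs passed and the median was 0.713, with 3.06% of all pairs above it. Depth and RNA makeup are shared by all genes of a mouse; with scaling by library size alone 29 pairs passed and the median was 0.741, while the median over all pairs of tested genes was 0.111, with 5.57% above the members' median.

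Fos and Atf3 had the highest Pearson r, 0.943, with rho = 0.87 over the 17 mice (permutation p = 1e-05 for each, the smallest that 100000 permutations can give, and adjusted p = 9e-05 and 0.00015). With the 2 mice farthest from the median of Fos left out, Control replicates 1 and 8, r was 0.864. Jun with Zfp36 and Junb with Zfp36 were above it by rho and without the 2 farthest mice. Jun and Zfp36 gave r = 0.933 and rho = 0.907 (permutation p = 1e-05 and 2e-05, adjusted p = 9e-05 and 0.00018), and r = 0.886 without the same 2 mice. The 2 feedback genes, Zfp36 and Dusp1, gave r = 0.927 and rho = 0.912 (permutation p = 2e-05 and 1e-05, adjusted p = 0.0001 and 0.00015), with r = 0.802 once Control replicate 1 and GWI replicate 1 were left out. For Junb and Zfp36, both called higher in GWI, r was 0.925 and rho 0.939 (permutation p = 1e-05 for each, adjusted p = 9e-05 and 0.00015), and r was 0.903 without Control replicates 1 and 2.

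Other relations rested on few mice. Egr1 with Dusp1 gave r = 0.656 and rho = 0.61 (permutation p = 0.00433 and 0.0101, adjusted p = 0.00812 and 0.0174), but r = 0.36 without Control replicates 1 and 8, and Fosb with Junb fell from r = 0.734 (rho = 0.618, permutation p = 0.00686 and 0.0106, adjusted p = 0.0123 and 0.0177) to 0.33 without Control replicates 1 and 7. The pooled r of each rests on the mice left out. Within the Control mice, the same 2 included, Egr1 and Dusp1 gave r = 0.82 and rho = 0.933 (exact p = 0.000744 and 0.00075, adjusted p = 0.00306 and 0.00843), and within the GWI mice r = 0.191 and rho = 0.214 (exact p = 0.653 and 0.619, adjusted p = 0.754 and 0.714). None of the 9 pairs with Nr4a1 passed by Pearson r with all mice (1 did without Control replicates 3, 4 and 5, where r was 0.17 to 0.657), and their r lay between −0.0108 with Junb (rho = 0.152, permutation p = 0.978 and 0.583, adjusted p = 0.978 and 0.596) and 0.517 with Ier2 (rho = 0.559, permutation p = 0.0552 and 0.0305, adjusted p = 0.0802 and 0.0457).

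Within the 9 Control mice 26 of 45 pairs passed the exact permutation test after adjustment, with a median r of 0.82, beside −0.00245 over all pairs of tested genes, of which 4.78% were above 0.82. Within the 8 GWI mice 12 of 45 passed, with a median r of 0.585, beside −0.00035 over all pairs, of which 12.0% were above 0.585, and 9 pairs had a negative r. Fos and Atf3 held in both (r = 0.934 in Control, exact p = 0.000774, adjusted p = 0.00306, and r = 0.972 in GWI, exact p = 0.000273, adjusted p = 0.0103). Junb and Egr1 gave r = 0.648 in Control (exact p = 0.0539, adjusted p = 0.0758) and −0.00962 in GWI (exact p = 0.985, adjusted p = 0.985). Whether the correlations differed between the groups was not tested.

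**Figure D3:**
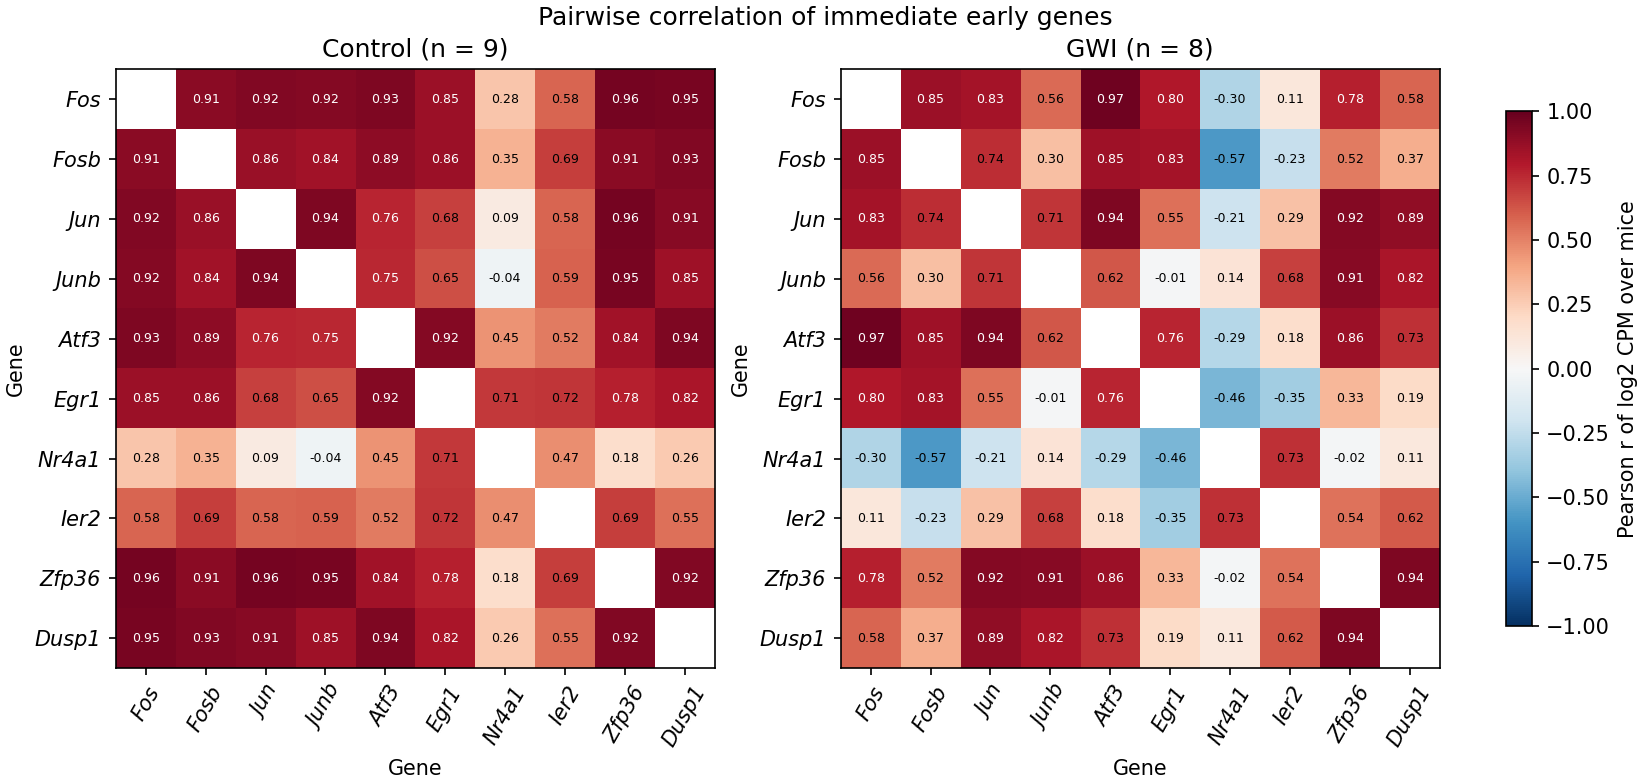
Pearson r of log2 CPM for each pair of immediate early genes, within the 9 Control mice and within the 8 GWI mice, on a colour scale from −1 to 1. The median was 0.82 in Control and 0.585 in GWI, and the lowest value was −0.572, for Nr4a1 with Fosb in GWI, while Nr4a1 with Ier2 stood at 0.734 there.

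Each member was also set against the mean of the standardised values of the other 9, as a description. The correlation over 17 mice was 0.923 for Fos, 0.919 for Zfp36, 0.904 for Atf3, 0.898 for Dusp1, 0.875 for Jun, 0.867 for Fosb, 0.816 for Junb, 0.808 for Egr1, 0.599 for Ier2 and 0.259 for Nr4a1. Without Control replicate 1 it was 0.424 for Nr4a1, 0.503 for Ier2, 0.662 for Junb and from 0.729 to 0.881 for the others. Within the GWI mice it was lower for Egr1 (0.392), Ier2 (0.384), Fosb (0.558) and Nr4a1 (−0.0857), and at least 0.773 for the others. Outside the members and the gene lists, the 10 genes most like the mean of the members, of 11887 with a mean count of at least 50, were Sertad1, Zdhhc18, Pard6b, Ccdc120, Ptprh, Tom1l2, Dhrs11, Sfn, Gnb1 and Ldha. Their r ran from 0.965 for Sertad1, a transcriptional coregulator, to 0.943 for Ldha, a subunit of lactate dehydrogenase, over 17 mice, and the next gene stood at 0.942. Without Control replicate 1 these 10 genes had an r of 0.882, for Ldha, to 0.934, for Zdhhc18. Sfn encodes the epithelial 14-3-3 sigma protein, Pard6b a polarity protein and Ptprh a receptor phosphatase. Of the 10, Zdhhc18 (0.60, adjusted p = 0.031), Pard6b (0.76, adjusted p = 0.0198), Ccdc120 (0.88, adjusted p = 0.00458) and Dhrs11 (0.60, adjusted p = 0.0193) were called higher in GWI. Sertad1, Ptprh, Tom1l2, Sfn, Gnb1 and Ldha were not called, with an adjusted p from 0.149, for Tom1l2, to 0.969, for Ldha. Of all tested genes 13.4% were called higher. These genes were picked for following the members, so their calls are not separate from those of the members.

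All 12 colon epithelium markers were tested and 4 were called higher and 0 lower, and their median log2 fold change was 0.33. Of 10 smooth muscle markers, 0 were called higher and 7 lower, with a median of −0.91. Marker counts here and in the next paragraph are to be read beside the shares of all tested genes called in the same fit. With all mice these were 13.4% higher and 13.5% lower, and whether a marker list exceeds them was not tested. In bulk tissue, fewer cells of a type and less RNA per cell cannot be told apart. The summed level of the smooth muscle markers ran from 2940 over 12500 to 26000 CPM, here without TMM scaling, in Control, with 18800 in Control replicate 1 and 2940 in Control replicate 9, and from 3750 over 5290 to 11500 in GWI, the highest GWI mouse being replicate 5. Myh11, the smooth muscle myosin heavy chain and the most abundant of them, averaged 2960 CPM ± 1970 (SD, n = 9) in Control and 1380 ± 579 (SD, n = 8) in GWI (log2 fold change −1.10, adjusted p = 0.0407). The summed epithelial markers ran from 20500 over 25500 to 32300 in Control and from 22700 over 29800 to 37600 in GWI, led by Car1, a carbonic anhydrase of colonocytes (−0.06, adjusted p = 0.917). Without Control replicate 1, 7 epithelial markers were called higher and 3 smooth muscle markers lower, beside 17.9% and 16.3% of tested genes. The replicate block gave 3 epithelial markers higher and 3 smooth muscle markers lower, beside 10.0% and 5.84% of tested genes. The name part as a random block gave 1 and 0, beside 2.66% and 0.664%. The part of either tissue in the difference of the immediate early genes was not tested beyond a fit with the difference of the muscle and epithelium scores as a covariate, in which 6 of the 10 members were called higher and 0 lower, where 13.8% of tested genes were called higher and 16.1% lower.

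Epithelial and smooth muscle markers were all detected, and of 8 pancreatic acinar markers 7 are in the table and 0 passed the filter, with Cpa1 and Try4 at 0 in every mouse and the most abundant, Cpb1, at 0.0751 CPM on the same scale in Control. In parentheses stands the most abundant gene of each of the other lists, called or not. Enteric neuron markers had 0 called higher and 1 lower of 10 (most abundant Uchl1, −0.63, adjusted p = 0.273), enteric glia 1 higher and 4 lower of 8 (Erbb3, also expressed by epithelium, 0.91, adjusted p = 0.00105), fibroblast 0 and 1 of 7 (Col3a1, −0.34), endothelium 0 and 3 of 8 (Pecam1, −0.29), macrophage 0 and 2 of 9 (Lyz2, −0.64, adjusted p = 0.0188) and lymphocyte 0 and 0 of 7 (Jchain, −0.25). Of neutrophil and mast cell markers 2 were tested and 0 called (Kit, 0.17), of skeletal muscle markers 4 with 1 lower (Ckm, −1.06), of adipocyte markers 6 with 1 higher (Lpl, 0.60) and of small intestine markers 4 with 1 higher and 1 lower (Sis, −0.69). With the name part as a random block, 1 enteric glia marker was called higher and 1 lower, and 0 markers of the other lists of this paragraph were called. With the replicate block 1 glia marker was higher, and those lower were 3 glia, 1 fibroblast, 3 endothelium, 1 macrophage and 1 skeletal muscle, with 0 in the other lists. Without Control replicate 1 the enteric neuron count was 0 and 2 adipocyte markers were higher, the other lists of this paragraph having the same counts.

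Over mice, with group means removed, 14 of 30 relations between the 10 genes and the smooth muscle, colon epithelium and heat shock scores passed after adjustment over the 30 relations, all of them positive. The share of all tested genes that pass against these scores is not given here. Whether the members do so more often than other genes was not tested. Zfp36 with the epithelial score gave r = 0.794 and rho = 0.745 (permutation p = 0.00035 and 0.00128, adjusted p = 0.00322 and 0.00858), and r = 0.537 without the 2 mice farthest from the median score, Control replicate 1 and GWI replicate 1. Jun with the smooth muscle score gave r = 0.713 and rho = 0.708 (permutation p = 0.00345 and 0.00352, adjusted p = 0.0129 and 0.0132), and r = 0.673 without Control replicates 6 and 9. Dusp1 with the epithelial score, at r = 0.646 and rho = 0.605 (permutation p = 0.00839 and 0.0149, adjusted p = 0.023 and 0.0344), fell to r = 0.164 without Control replicate 1 and GWI replicate 1 and so rests on those mice. Nr4a1 stood apart here too. It followed the heat shock score (r = 0.84, rho = 0.792, permutation p = 0.00043 and 0.00143, adjusted p = 0.00322 and 0.00858, and r = 0.768 without Control replicates 4 and 9) and not the epithelial one (r = −0.0559, rho = 0.0245, permutation p = 0.844 and 0.93, adjusted p = 0.844 and 0.93). Within groups the relation of Nr4a1 with the heat shock score was r = 0.908 in Control (exact p = 0.000774, adjusted p = 0.0232) and 0.466 in GWI (exact p = 0.245, adjusted p = 0.367). Without Control replicates 3, 4 and 5 it was r = 0.577 and rho = 0.653 over 14 mice (permutation p = 0.039 and 0.0166, adjusted p = 0.0689 and 0.0451), so that its call by r rests on those mice, and 8 of the 30 relations passed. With the mean of each name part removed and mice permuted within name parts, 0 of the 30 relations passed after adjustment.

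Of 182 related genes in 8 lists, 168 were tested, and 36 (21.4%) were called higher and 25 (14.9%) lower, beside 13.4% and 13.5% of all tested genes. Leaving out Control replicate 1 gave 53 (31.9%) and 25 (15.1%), beside 17.9% and 16.3%. The replicate number as a block gave 25 higher (14.9%, beside 10.0%) and 13 lower (7.74%, beside 5.84%), and the name part as a random block 14 higher (8.33%, beside 2.66%) and 8 lower (4.76%, beside 0.664%). The counts of the single lists below are to be read beside the same shares, 13.4% higher and 13.5% lower, and whether a list exceeds them was not tested. List counts from the other fits are to be read beside the shares of those fits given above. The genes named below as rising or falling were all called without Control replicate 1 too. Fosl2, Id2, Klf9, Dusp6, Errfi1, Rgs1, Mapk14, Elk1, Rps6ka5, Hspe1, Hsp90aa1 and Hspa8 were called with neither block, and Jdp2, Nr4a3, Ereg, Hbegf, Spred2 and Dnaja1 were called with the replicate block but not with the name part. Among 12 other AP-1 and ATF genes 1 rose and 1 fell (8.33% each). Without Control replicate 1, 3 of 11 were called higher (27.3%) and 2 lower (18.2%). The replicate block gave 0 higher and 1 lower, and the name part 0 of each. Fosl2, a FOS-family subunit, was the gene that rose with all mice, from 153 CPM ± 73.8 (SD, n = 9) to 247 ± 48.3 (SD, n = 8), a log2 fold change of 0.69 (SE 0.218, adjusted p = 0.0272). Jdp2, a dimerization partner that represses AP-1, fell (−0.83, SE 0.266, adjusted p = 0.0282). Jund, the most abundant gene of the list, was not called (0.29, adjusted p = 0.36). The call of Fosl2 was lost in 2 of the 17 fits without 1 mouse and that of Jdp2 in 6, with an adjusted p of at most 0.0578 and 0.0585.

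Among 29 tested genes of the other EGR, NR4A, KLF and early factor families, 8 rose (27.6%) and 5 fell (17.2%). Without Control replicate 1 these counts were 10 and 4, with the replicate block 6 and 1, and with the name part 4 and 0. Klf10, induced by TGF-beta, went from a Control range of 23.3 to 59.4 CPM to a GWI range of 60.3 to 111 CPM (log2 fold change 1.23, SE 0.198, adjusted p = 0.000765). Ranges of genes named for their low p, here and below, are apart partly through that choice. The share of all tested genes whose group ranges are apart is not given here. Ier5, an early gene that acts with the heat shock factor HSF1, rose by 1.10 (adjusted p = 0.00149), and Id3, an inhibitor of basic helix-loop-helix factors, by 0.54 (adjusted p = 0.00149). Nr4a3, a receptor of the same family as Nr4a1, fell (−1.73, SE 0.326, adjusted p = 0.00192), from 4.82 CPM ± 2.77 to 1.45 ± 0.521. Id2 also fell (−0.49, adjusted p = 0.012), as did Klf9, a glucocorticoid-induced factor (−0.37, adjusted p = 0.0246). The call of Klf9 was lost without GWI replicate 2 or GWI replicate 4 (adjusted p = 0.05 and 0.0522). Klf4, an epithelial factor and the most abundant of the list, was not called with all mice (0.42, adjusted p = 0.267) and was without Control replicate 1 (0.75, adjusted p = 0.00655).

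Of 13 tested secreted and matrix genes 2 rose (15.4%) and 0 fell. Both are EGF receptor ligands: Hbegf rose by 1.15 (SE 0.335, adjusted p = 0.0189) and Ereg by 0.69 (SE 0.161, adjusted p = 0.00647). This list had 3 higher and 0 lower without Control replicate 1, 2 and 1 with the replicate block, and 0 of each with the name part. By its entry Il6 was the most abundant gene of the list, at 175 CPM ± 43.3 in Control and 206 ± 71.4 in GWI (0.23, adjusted p = 0.345). That entry stands with those of Il4 and Chat at the top of a table that is otherwise in nearly alphabetical order, its raw counts were 2110 to 5601, and its origin could not be checked here, so its level should be read with that reserve. Leaving out these 3 entries, a setting chosen after the data were seen, left the counts of called genes at 3 of the members and at 36 higher and 25 lower of the related genes. The next gene of the list by level was Thbs1, an extracellular matrix glycoprotein (−0.29, adjusted p = 0.246), which was called lower without GWI replicate 5 (−0.46, adjusted p = 0.0417).

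Feedback genes of the MAP kinase pathways had 5 of 18 higher (27.8%) and 0 lower. Without Control replicate 1, 8 of 17 were higher (47.1%). The replicate block gave 2 (11.1%) and the name part 1 (5.56%), with 0 lower in each. Dusp16, a JNK and p38 phosphatase, rose by 0.60 (SE 0.0977, adjusted p = 0.000799), the highest Control being 54.7 CPM and the lowest GWI close to it at 55.2. Spred2, an inhibitor of RAS signalling, rose by 0.62 (adjusted p = 0.00353), Dusp6, the cytoplasmic ERK phosphatase, by 0.66 (adjusted p = 0.0268), and Errfi1, an inhibitor of the EGF receptor and the most abundant of the list, by 0.67 (adjusted p = 0.0441). Of the 17 fits without 1 mouse, 3 lost the call of Dusp6 and 12 that of Errfi1, with an adjusted p of at most 0.0555 and 0.083. Among 27 genes of mRNA decay and NF-kappaB feedback, 10 rose (37.0%) and 4 fell (14.8%). Without Control replicate 1, 17 were called higher (63.0%) and 4 lower. The replicate block gave 8 and 2, and the name part as a random block 4 and 2. Sik1, a salt-inducible kinase that restrains CREB coactivators, rose by 1.15 (SE 0.164, adjusted p = 0.000396), from at most 8.09 CPM in Control to at least 8.61 in GWI. Zfp36l2, a paralog of Zfp36, rose by 0.83 (adjusted p = 0.00156), and Tob2, an antiproliferative protein that recruits deadenylases, by 0.71 (adjusted p = 0.00102). Rgs2 and Rgs1, which speed GTP hydrolysis by G-protein alpha subunits, fell, Rgs2 with a log2 fold change of −0.90 (adjusted p = 0.00104) and Rgs1 with −1.24 (adjusted p = 0.0116), and Zc3h12c, a CCCH zinc finger gene, fell (−0.72, adjusted p = 0.00419). Mcl1, the most abundant of the list and an inhibitor of apoptosis, was not called (0.21, adjusted p = 0.398) except without Control replicate 1 (0.38, adjusted p = 0.0399).

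Among 34 upstream kinases and SRF and CREB factors, 5 rose (14.7%, near the share of all tested genes) and 2 fell (5.88%, below it). Without Control replicate 1 these counts were 7 and 2, with the replicate block 3 and 0, and with the name part 2 and 0. Rps6ka1, an ERK-activated kinase, rose by 0.63 (adjusted p = 0.0028) and Mapk14, which encodes p38 alpha, by 0.40 (adjusted p = 0.0165). Elk1, a ternary complex factor at SRF sites, fell (−0.30, adjusted p = 0.0324), as did Rps6ka5, which encodes the kinase MSK1 (−0.51, adjusted p = 0.041). Mapk3, which encodes ERK1 and was the most abundant, was not called (0.21, adjusted p = 0.179). In the 17 fits without 1 mouse the call of Elk1 was lost in 8 and that of Rps6ka5 in 10. Of 16 heat shock genes, most of them cytosolic, 0 rose and 5 fell (31.2%), among them the cochaperone Dnaja1 (−0.51, adjusted p = 0.00457), Hspe1, which encodes the cochaperonin of the mitochondrial matrix (−0.45, adjusted p = 0.0231), Hsp90aa1 (−0.46, adjusted p = 0.0318) and the abundant Hspa8 (−0.34, adjusted p = 0.0342). With the replicate block 1 heat shock gene was lower (6.25%), and with the name part 0 were, while 5 were without Control replicate 1. In the 17 fits without 1 mouse the call of Hspe1 was lost in 1, that of Hsp90aa1 in 5 and that of Hspa8 in 11.

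Clock and glucocorticoid-induced genes, set beside the members because both vary with the hour and the handling of an animal, had 5 of 21 higher (23.8%) and 8 lower (38.1%). Without Control replicate 1 these counts were 5 and 8, with the replicate block 4 and 7, and with the name part 3 and 6. Arntl, which encodes the clock activator BMAL1, rose by 1.72 (SE 0.263, adjusted p = 0.000639), its partner Npas2 by 1.58 (adjusted p = 0.00075) and Sgk1, a kinase induced by glucocorticoids, by 1.27 (adjusted p = 0.00109). The output factors Hlf (−1.61, adjusted p = 0.000588) and Dbp (−1.12, adjusted p = 0.000947) fell, as did the clock repressor gene Ciart (−1.14, adjusted p = 0.000787). Cdkn1a, the most abundant of the list, encodes the cell cycle inhibitor p21 and was not called (0.13, adjusted p = 0.745), although its r with the mean of the members was 0.98. The hour of collection is not given in the labels, and its part in the difference was not tested.

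By the medians of their gene models the members are compact, a feature the choice did not use. The median number of exons in the chosen transcript was 3, beside 9 over 13795 tested genes with a coding model, and 5 of 10 had at most 2 exons, as did 7.17% of tested genes. The median span of the transcript on the genome was 3430 bases, beside 23100. Nr4a1 was near the medians of tested genes, with 8 exons over 20527 bases, and the transcript of Atf3 spanned 13045 bases. Fos lies at chr12:85473890-85477273 on the plus strand (GRCm38), and Jun, with a single exon, at chr4:95049034-95052222 on the minus strand. Junb at chr8:84974484-84978718 and Ier2 at chr8:84661331-84662852 are on 1 chromosome and both on the minus strand, as are Fosb at chr7:19302696-19310051 and Zfp36 at chr7:28376784-28380253.

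AU-rich letters in the 3′ UTR are shown because one member, Zfp36, encodes a protein that binds them. The pentamer ATTTA, read on the transcript strand, occurred in the 3′ UTR of 9 of 10 members, all but Ier2, and in 66.9% of the 13795 tested genes. Its median density was 3.56 per kilobase in the members and 1.25 in tested genes. The heptamer TATTTAT, which contains the pentamer, occurred in 6 of 10 members and in 28.2% of tested genes. Both are matches of letters, not measured binding. The first heptamer of 3 members is printed with 9 bases on either side, in capitals, from the GENCODE M21 transcripts, 5′ to 3′; it begins 656 bases after the stop codon in Fos, 575 in Zfp36 and 104 in Dusp1.
Fos: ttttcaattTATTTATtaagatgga
Zfp36: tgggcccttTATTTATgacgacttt
Dusp1: gctggtcctTATTTATttaacaccc

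Promoters are shown because most members moved together over mice. RefSeq windows of 250 bases before to 50 after the start (build GRCm38.p6) matched 8 of the 10 members, and Egr1 and Ier2 had no entry. They were searched on both strands for TGACG, the core of a cyclic AMP response element, for the full element TGACGTCA, which contains TGACG on both strands, for the AP-1 site TGACTCA, its centre base being C or G, and for the CArG box of SRF, and on the given strand for TATAAA. The core TGACG was found in 6 of 8 member windows, those of Fos, Fosb, Junb, Atf3, Nr4a1 and Dusp1, and in 20.8% of all 32851 windows. The full element was found in 1 of 8, Dusp1, and in 1.79% of all. A CArG box was found in 1 of 8, Zfp36, and in 1.63%, TATAAA in 2 of 8, Fos and Junb, and in 8.32%, and an AP-1 site in 0 of 8 and in 5.2%. These matches say only which letters the windows hold. Capitals mark the matches in the windows of Fos (chr12:85473640-85473939, plus strand), Junb (chr8:84978699-84978998, minus strand), Zfp36 (chr7:28379179-28379478, minus strand) and Dusp1 (chr17:26508423-26508722, minus strand). In Fos, TGACG begins 129 and 66 bases and TATAAA 33 bases before the start, in Junb TGACG begins 106 bases before it and TATAAA lies at the annotated start itself, not upstream of it, in Zfp36 the CArG box begins 58 bases before it, and in Dusp1 the full element begins 143 bases before it.
Fos: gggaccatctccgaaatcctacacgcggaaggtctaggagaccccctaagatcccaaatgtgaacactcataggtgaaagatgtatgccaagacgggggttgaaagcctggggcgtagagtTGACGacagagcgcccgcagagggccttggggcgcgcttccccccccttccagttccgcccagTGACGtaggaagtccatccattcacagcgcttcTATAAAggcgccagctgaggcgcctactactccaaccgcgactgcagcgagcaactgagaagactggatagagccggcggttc
Junb: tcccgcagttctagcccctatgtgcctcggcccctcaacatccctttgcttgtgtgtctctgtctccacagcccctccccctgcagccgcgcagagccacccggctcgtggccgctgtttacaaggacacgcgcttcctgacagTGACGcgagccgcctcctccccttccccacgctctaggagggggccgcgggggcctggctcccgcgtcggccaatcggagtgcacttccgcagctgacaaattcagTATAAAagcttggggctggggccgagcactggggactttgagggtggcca
Zfp36: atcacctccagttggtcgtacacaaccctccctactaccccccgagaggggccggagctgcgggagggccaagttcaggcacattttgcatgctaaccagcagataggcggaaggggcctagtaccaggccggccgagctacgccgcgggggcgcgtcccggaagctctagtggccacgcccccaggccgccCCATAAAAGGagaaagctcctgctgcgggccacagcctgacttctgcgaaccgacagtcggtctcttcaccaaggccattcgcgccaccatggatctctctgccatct
Dusp1: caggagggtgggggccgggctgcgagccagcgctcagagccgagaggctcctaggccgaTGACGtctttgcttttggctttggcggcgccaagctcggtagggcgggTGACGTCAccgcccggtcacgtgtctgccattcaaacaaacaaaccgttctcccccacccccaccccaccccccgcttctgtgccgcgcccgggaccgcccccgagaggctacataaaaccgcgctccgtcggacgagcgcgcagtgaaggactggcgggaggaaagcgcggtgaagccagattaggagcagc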

How the data were processed

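Colon RNA from 9 Control and 8 GWI mice was sequenced. The authors deposited 1 table of raw counts without normalization, made from poly(A)-selected paired-end reads that were, per the submitters' processing notes and the study's methods, trimmed with Trimmomatic 0.36, mapped with STAR 2.5.2b to GRCm38 and counted as unique gene hits with featureCounts. The annotation release and strand setting are not given in the sources used here. All 17 columns matched a sample, and 0 were left over. The 48 entries that repeat a symbol were kept as separate features. The first 3 entries (Il4, Il6 and Chat) stand ahead of the alphabetical order of the table.

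The members and gene lists were chosen with earlier results of these data known. Counts were filtered with filterByExpr, normalized with TMM factors, and edgeR 4.0.16 fitted condition as the only term to all 17 mice (quasi-likelihood F test, robust). Benjamini-Hochberg adjustment ran over 14146 entries, and an adjusted p under 0.05 was a call. Each SE is the size of the log2 fold change over the square root of F. Correlations used log2 CPM (prior count 2) with the group mean removed, 100000 two-sided permutations within groups, and exact permutation within each group. DESeq2 1.42.0 and limma 3.58.1 were alternatives, and each mouse was left out in turn. The fits were tested on simulated data, where DESeq2's Wald test made more false calls than its threshold allows, so that the limit set on false calls was kept for the other tests only.

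Text names all members; of each related list up to 3 genes a direction with the lowest p among those called and the most abundant gene; of each marker list the most abundant gene and any at 0; and the 10 other genes most like the members. Thbs1, Klf4 without Control replicate 1, the genes that overlap members and the mice named were singled out after their values were seen. No pair of replicate libraries agreed within counting noise (chi-square per degree of freedom at least 9.41).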

Additional observations from a re-analysis of the deposited data

Results flagged for a closer look

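A mouse was singled out where its gap to the nearest mouse of its group was larger, as a share of the group's range, than Dixon's 95% critical value. Of 50 groups of values checked, 10 were singled out, and for normally distributed values chance gives about 1 in 20. The check used CPM without a log scale, so that rate may not hold here and the count is a description only. Control replicate 1 was the highest Control for Fos (0.739 of the range, 185 CPM beside 56.7 in the next mouse), Fosb (0.89, 24.8 beside 3.18), Jun (0.661, 277 beside 140), Junb (0.508, 187 beside 120), Atf3 (0.707, 95.0 beside 32.2), Zfp36 (0.598, 90.8 beside 57.9) and Dusp1 (0.769, 55.0 beside 21.2). These genes vary together, so the 7 values are not independent. GWI replicate 5 was the highest GWI mouse for Egr1 (0.568, 34.4 CPM beside 20.4). The summed adipocyte markers were highest in GWI replicate 7 (0.624, 1150 CPM without TMM scaling, beside 533) and the summed small intestine markers in Control replicate 7 (0.648, 820 on the same scale, beside 339).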

How the results depend on the processing

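The count of 3 members called higher is to be read beside the share of all tested genes called higher, 13.4%. It was 1 with upper-quartile factors (8.58%), 5 with DESeq2's Wald test (15.3%), which made too many false calls in simulated data, 7 with limma-voom and quality weights (27.6%, with 57.2% called in either direction), 0 with the name part as a random block (2.66%), 6 with the muscle minus epithelium covariate (13.8%), 6 at an adjusted p under 0.10 (17.7%) and 1 at an unadjusted p under 0.05 with an absolute log2 fold change over 1 (0.65%). It was 7 without Control replicates 1 and 9 (19.7%) and 1 with the mitochondrial share as a covariate (15.8%), both chosen after seeing the data, and 2 to 8 with each mouse left out. 0 were called lower, except 1 (Nr4a1) with limma-voom. With the replicate block it was 1 (10.0%), and 13 related genes were lower in place of 25; the label numbers do not pair the mice, and no mouse's deviations correlated best with its own number. Related genes called higher, 36, were 58 with limma-voom and 14 with the name part, and those lower 44 and 8. Leaving out each mouse gave 31 to 53 higher and 17 to 29 lower.

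The median log2 fold change stayed between 0.52 and 0.90 with each mouse left out. Co-varying pairs, 30, were 22 to 31, with a median r of 0.583 to 0.775, 19 without Control replicates 1 and 9 and 15 with the name part mean removed, chosen after seeing the data; relations with the scores, 14, were 10 to 18, 8 without Controls 3, 4 and 5 (31 pairs), and 0 with the name part mean removed, where fewer mice and permutations are used, and negative pairs and relations were 0.

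Signs turned for Fosb (−0.19 to 0.50 with limma-voom, 0.56 with the replicate block, 0.62 with the name part, 1.22 with the muscle covariate, −0.37 to 1.09 with each mouse left out, the highest without Control replicate 1, and 0.98 without Controls 1 and 9), Egr1 (0.60 with the muscle covariate) and Nr4a1 (0.12 with the name part, 0.46 with the muscle covariate, −0.22 to 0.021 with each mouse left out, above 0 without Control replicate 5) and Thbs1 (0.17 with the muscle covariate); the cause was not tested. Upper-quartile factors moved the split of all called genes from 1889 higher and 1903 lower to 1214 and 2992. At least 10 counts in every mouse left Fosb untested. All mice were male and from 1 collection day, so nothing here bears on females or on earlier times, and bulk tissue gives no level per cell type.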
